A study of Homo sapiens with 10 samples.

Results

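The nuclear genes of oxidative phosphorylation were followed through heat shock and YTHDC1 knockdown in U2OS cells, an established human osteosarcoma line. They were taken from the RNA-seq count table by symbol: the NDUF, UQCR, COX4I to COX8, ATP5F, ATP5M and ATP5P families, SDHA to SDHD and CYC1, without 181 rows of pseudogenes and 6 of antisense or divergent transcripts. That gave 98 of 63187 rows: 7 core and 30 supernumerary subunits of complex I, 8 NDUFAF assembly factors of complex I, 4 genes of complex II, 10 of complex III, 19 of complex IV, 18 of complex V and 2 read-through transcripts. Of these, 87 had enough reads to be tested.

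There were 3 groups of 2 libraries: U2OS cells kept unheated with the control knockdown reagent, cells heat shocked with the same control reagent, and cells heat shocked with a reagent against YTHDC1, a nuclear reader of the m6A mark on RNA. No group was both unheated and knocked down, so the knockdown was seen only in heated cells. The sample titles name a short hairpin and other labels a small interfering RNA, so only the word knockdown is used, and how hot and how long the cells were heated is not given in the sources used here. Whether the 2 libraries of a group are separate cultures is not stated either. The p-values therefore cover only the variation seen between these libraries, and part or all of it may be technical.

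Oxidative phosphorylation passes electrons from NADH and succinate through complexes I and II to ubiquinone, then through complex III and cytochrome c to complex IV, which reduces oxygen. Complexes I, III and IV pump protons out of the mitochondrial matrix, and complex V, the ATP synthase, lets them return and makes ATP. Apart from complex II, each complex joins subunits made in the cytosol from the nuclear genes described here to a few encoded by mitochondrial DNA. Complex I has a catalytic core inherited from bacteria and a shell of supernumerary subunits, most of which stabilize it.

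Libraries held 13252370 to 15500743 counts. Levels are in CPM, counts scaled to a common library size after TMM scaling. YTHDC1 itself stood at 213 and 225 CPM in the unheated controls, 268 and 258 in the heated controls and 121 and 118 in the heated knockdown, so the libraries labelled knockdown carried less of its RNA (log2 change -1.14 ± 0.05, SE, edgeR adjusted p 2.66e-15 against the heated controls). The mesenchymal markers VIM, SPARC and COL1A1 were abundant in every library, in which the 7 mesenchymal and osteoblast markers summed to 3834 to 4390 CPM, whereas COL1A2 was at most 2.25 CPM and ALPL at most 3.34. The 9 markers of epithelial, blood and endothelial cells summed to 327 to 428 CPM, most of it KRT18, and HBB was at 0 in all 6 libraries. Of the 7 of these 9 that were tested, 3 rose in the knockdown (EPCAM, CDH1 and KRT5) and 3 fell (PECAM1, LCP1 and KRT18), and of the 7 mesenchymal and osteoblast markers 4 rose (COL1A1, COL1A2, CDH11 and RUNX2) and 2 fell (VIM and SPARC). With heat KRT18 rose (0.33 ± 0.05), KRT5 and RUNX2 fell, and HBA2 had 0 CPM in both unheated controls and 1.08 and 6.31 in the heated controls, without being called. The part of these markers in the changes below was not tested.

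The tested members ranged from a mean of 1.72 to 542.9 CPM, with a median of 69.02. Compared per kilobase of the deposited gene length, the highest member of complex I was NDUFS5, a supernumerary subunit. It stood at 452 CPM per kilobase in the unheated controls, 437 in the heated controls and 382 in the knockdown. The highest of complex V was ATP5F1B, the catalytic beta subunit, at 187, 205 and 178 CPM per kilobase. In complex IV it was COX7C at 145, 168 and 115, and in complex III UQCRH, a hinge protein of cytochrome c1, at 119.9, 138 and 112. SDHB, the iron-sulfur subunit, led complex II at a lower 32.8, 35.8 and 34.4 CPM per kilobase. By CPM with no length correction, SDHB kept its first place and the other complexes were led by NDUFB9, UQCRQ, COX4I1 and ATP5F1A. The deposited length need not be that of a transcript: for NDUFB9 it is 16591 bases, more than its whole RefSeq span. The order per kilobase therefore depends on the annotation.

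Isoforms known from muscle, lung, testis or other tissues were at or near 0. Of the 11 members left untested, COX4I2, COX7B2, ATP5MGL and the read-through NDUFC2-KCTD14 had no count in any library, and COX6A2, COX7A1, COX8C, NDUFA4L2, COX6B2, NDUFA7 and the read-through ATP5MF-PTCD1 had at most 8. NDUFA7, otherwise known as a widely expressed subunit of complex I, was among these. Their widely expressed counterparts carried the reads: COX4I1 stood at 399 and 412 CPM in the unheated controls, 444 and 449.5 in the heated controls and 399.9 and 382 in the heated knockdown, and COX6A1 at 31.9 and 30.7 CPM in the unheated controls, 31.8 and 31.2 in the heated controls and 28.3 and 29.7 in the heated knockdown. ATP5MC1 to ATP5MC3 encode an identical mature c subunit of the ATP synthase ring, and all 3 were expressed, with ATP5MC2 at 98.6 and 111 CPM, ATP5MC3 at 90.3 and 93.9 and ATP5MC1 at 49.7 and 46.7 in the unheated controls.

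Many members resemble processed pseudogenes or overlap a neighbour: 52 of the 87 have a pseudogene row in the same table and 33 share part of their RefSeq span with another gene. How the submitters treated strand and reads with several positions is not given in the sources used here, so the counts of these members are uncertain. The 24 with neither feature are given separately. These features were found by gene name and RefSeq span alone, so the 24 are not free of such doubt. UQCRHL, near-identical to UQCRH, is among them. SDHA has 6 such pseudogene rows, and these features are not repeated for every member named below.

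In the heated cells most of the nuclear-encoded subunits were modestly lower in the knockdown. The heated controls used here also serve the heat comparison below, so a deviation in them moves the 2 comparisons in opposite directions. Set against the unheated controls, the heated knockdown had a median log2 change of -0.068 over the members. Against the heated controls, 49 of the 87 tested members fell and 11 rose (edgeR, adjusted p under 0.05), a share of 69.0% called where 54.5% of all 17290 tested genes were called. Of all tested genes 27.4% rose and 27.2% fell, whereas 12.6% of the members rose and 56.3% fell. The median log2 change was -0.20 over the members and -0.0042 over all tested genes. Among protein-coding genes at or above the members' 10th percentile of abundance, 3065 rose and 3068 fell of 9024. That is 68.0% called, close to the members' 69.0%, so beside these genes the members differed in the direction of the calls and not in their share. The 24 members without a pseudogene row or overlap included 12 that fell and 2 that rose, with a median of -0.18. Without the first heated control library the members' counts were 38 lower and 7 higher.

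**Figure D1:**
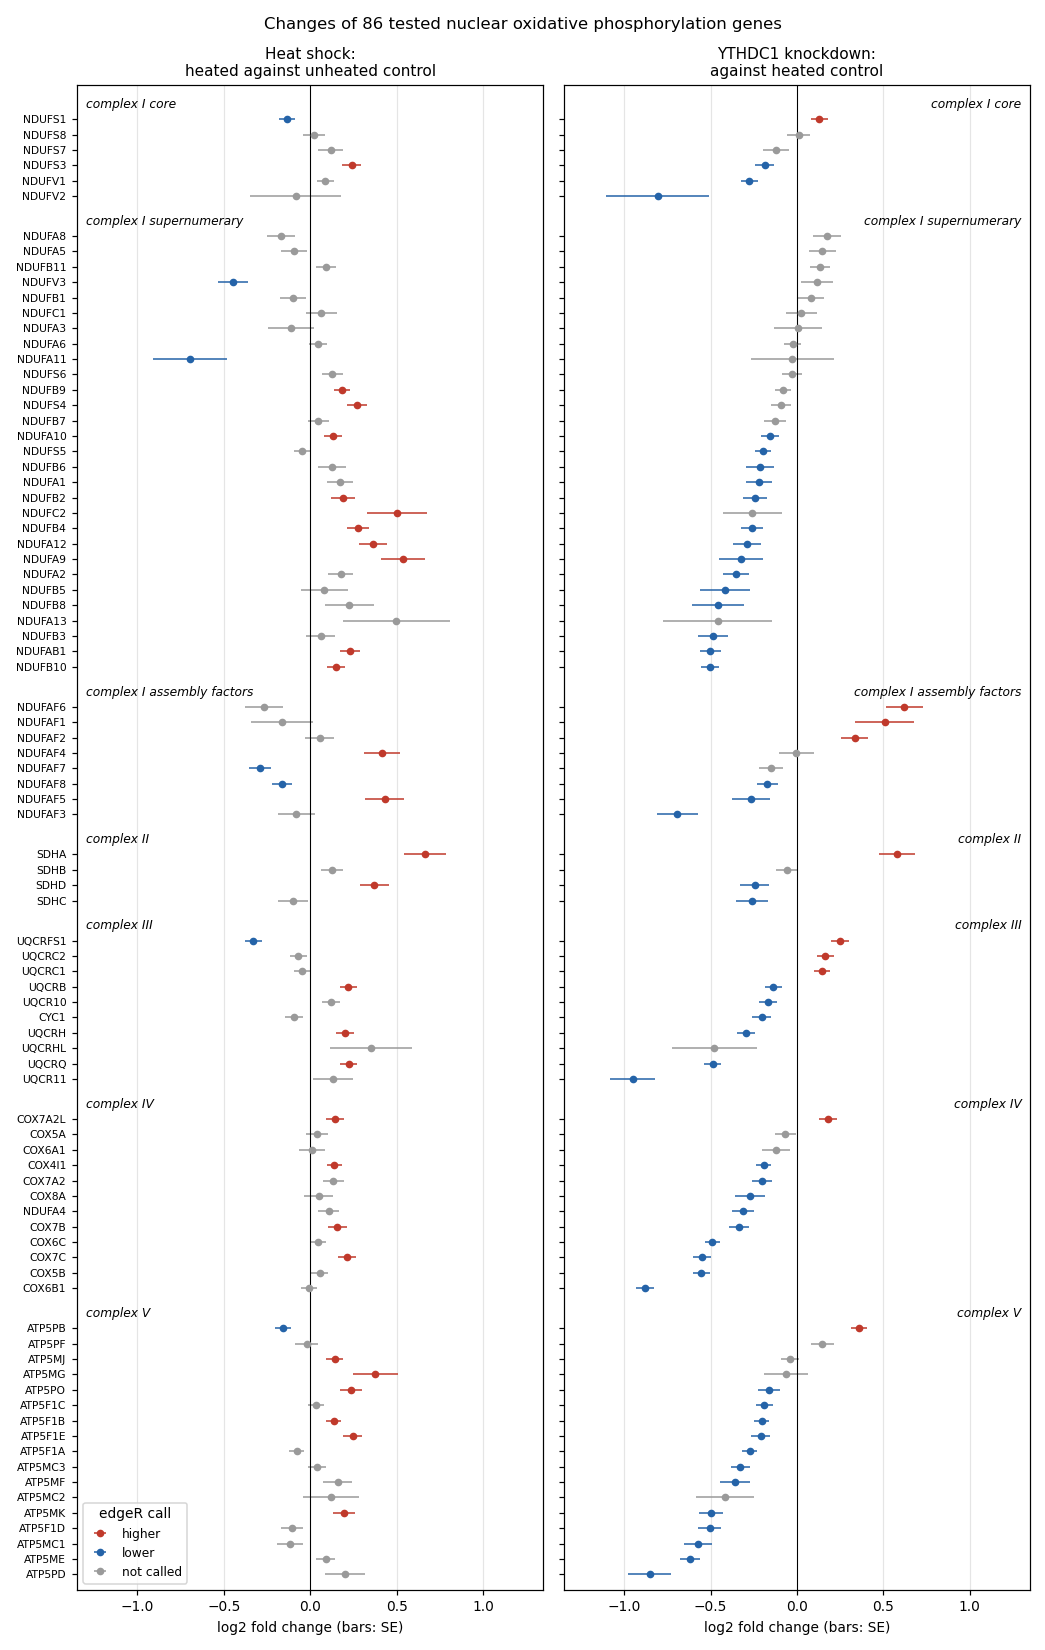
Log2 fold change of each of 86 tested members (rows, by complex and role), for heat shock in control cells (left) and for YTHDC1 knockdown in heated cells (right). Points are edgeR estimates, bars are 1 SE and colours give the call. On the right most points lie left of 0, 49 of them called lower, and the largest falls are in UQCR11, COX6B1 and ATP5PD.

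The falls were unevenly spread over roles. In complex IV 9 of 12 tested genes fell and 1 rose, with a median log2 change of -0.29, and in complex V 12 of 17 fell and 1 rose, with a median of -0.27. Of the supernumerary subunits of complex I 14 of 29 fell and 0 rose. The core of complex I had 3 lower and 2 higher of 7, its assembly factors 3 and 3 of 8, complex II 2 lower and 1 higher of 4, and complex III 6 lower and 3 higher of 10. Differences between the roles were not tested. With 1 library left out, complex IV had 8 or 9 falls and complex V 11 to 13, whereas the supernumerary falls numbered 7 without the first heated control and the complex II falls 0 without the second. Without the first heated control complex III had 1 rise, and without the second the assembly factors had 1 fall and complex IV had 0 rises. The rises of the complex I core numbered 1 without any single control library.

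Summed over all 98 members, the RNA stood at 8232 and 8291 CPM in the unheated controls, 8773 and 8640 in the heated controls and 7634 and 7566 in the knockdown. Both knockdown libraries lay below the other 4, and their mean was 87.3% of the heated controls' mean. Among the complexes the drop was largest in complex IV, at 2024 and 1981 CPM in the heated controls and 1575 and 1555 in the knockdown, or 78.1%. The core of complex I summed to 515.5 and 525.4 CPM in the heated controls and 546.3 and 544 in the knockdown. In these bulk libraries, fewer cells carrying an RNA and less of it per cell cannot be told apart.

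**Figure D2:**
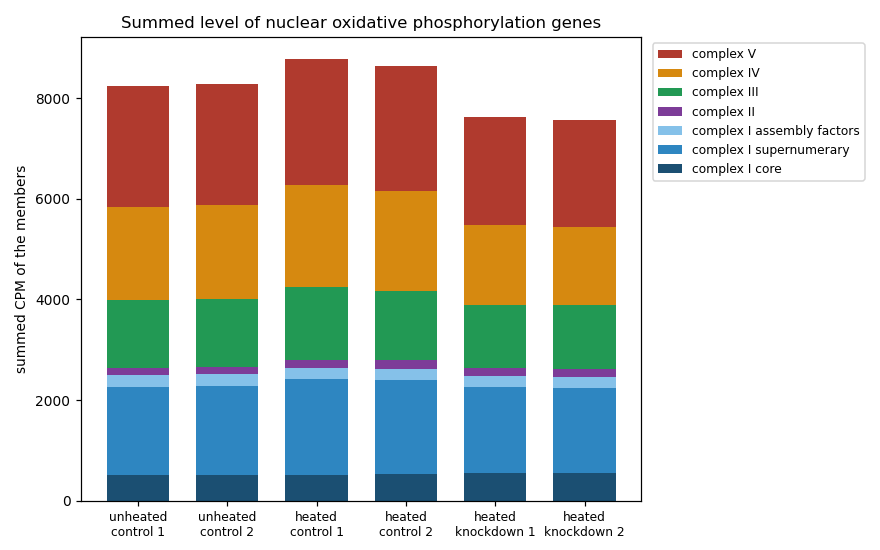
Summed CPM of the members in each of the 6 libraries, stacked by complex and role. The bars stand at 8232 and 8291 (unheated), 8773 and 8640 (heated control) and 7634 and 7566 (heated knockdown), and the complex IV segment shrinks from 2024 and 1981 to 1575 and 1555 between the heated groups.

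Complex IV, cytochrome c oxidase, held the second of the large falls. COX6B1 (chr19:35648323-35658782 in RefSeq GRCh38.p14), a subunit on the intermembrane side that helps join the oxidase into dimers, stood at 167 and 170.3 CPM in the unheated controls, 173 and 163 in the heated controls and 93.5 and 89.1 in the heated knockdown. Heated and unheated controls overlapped and both knockdown libraries were far below them, at 54.4% of the heated controls (log2 change -0.88 ± 0.05, SE, edgeR adjusted p 7.32e-13). COX6B1 has 7 pseudogene rows, so its counts are uncertain. Its paralogue COX6B2, known from testis, had at most 8 counts in a library.

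COX5B, a zinc-binding subunit on the matrix side, stood at 209.8 and 209 CPM in the unheated controls, 221 and 214 in the heated controls and 156 and 141 in the heated knockdown (log2 change -0.55 ± 0.05, adjusted p 1.91e-09). COX7C, a small membrane subunit, stood at 281 and 292 CPM in the unheated controls, 331 and 332 in the heated controls and 212 and 242 in the heated knockdown, lowest in the knockdown in both libraries (-0.55 ± 0.05, adjusted p 3.42e-09). Further falls were in COX6C (-0.49 ± 0.05), COX7B (-0.34 ± 0.06), NDUFA4 (-0.31 ± 0.06), COX8A (-0.27 ± 0.09), COX7A2 (-0.20 ± 0.06) and COX4I1 (-0.19 ± 0.04). NDUFA4 was first assigned to complex I and is now counted with complex IV. Except for COX8A, all of these genes have pseudogene rows, among them COX6C with 17, COX5B with 7 and COX7C with 4. COX7C also overlaps another gene. COX8A was not called by DESeq2 (adjusted p 0.0787), without the second heated control (-0.22, adjusted p 0.1) or without the first knockdown library (-0.21, adjusted p 0.079). The call of COX7A2 was lost without the first heated control (-0.16, adjusted p 0.0807).

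COX7A2L, a factor that links complexes III and IV into supercomplexes, went the other way. It stood at 102 and 104 CPM in the unheated controls, 118 and 111 in the heated controls and 130.4 and 128 in the heated knockdown, with the knockdown above both control groups (log2 change 0.18 ± 0.05, adjusted p 0.00444), and without the second heated control the change was 0.12, adjusted p 0.119. COX5A and COX6A1 were not called, at -0.07 ± 0.06 and -0.12 ± 0.08.

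In complex V the deepest called fall was in ATP5PD, the d subunit of the peripheral stalk (chr17:75038863-75046969). It stood at 94.2 and 102 CPM in the unheated controls, 114 and 111 in the heated controls and 71.3 and 53.5 in the heated knockdown. The knockdown libraries disagreed with each other more than those of most members, but both lay below all 4 controls (-0.85 ± 0.13, adjusted p 0.00149). It has 4 pseudogene rows and 2 overlapping genes, so its counts are uncertain.

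ATP5ME, the e subunit, which helps the synthase form dimers (chr4:672436-674276), stood at 84.3 and 82.7 CPM in the unheated controls, 91 and 86.9 in the heated controls and 58.2 and 57.6 in the heated knockdown. It has neither a pseudogene row nor an overlap, and its knockdown libraries lay close together at 65.1% of the heated controls (-0.62 ± 0.06, adjusted p 2.18e-09). ATP5MC1 fell as well (-0.57 ± 0.08), from 42.8 and 46.1 to 27.4 and 32.3 CPM, as did ATP5MC3 (-0.33 ± 0.05), from 92.4 and 97 to 74.7 and 76.3 CPM. ATP5MC2, the third gene of the c ring, was not called (-0.42 ± 0.17, adjusted p 0.112): its heated controls lay apart, at 97 and 130.1 CPM, and it was called when either of them was left out (-0.61 and -0.19).

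The delta subunit of the central stalk, ATP5F1D, stood at 65.3 and 66.4 CPM in the unheated controls, 58.4 and 64 in the heated controls and 42.6 and 43.8 in the heated knockdown (-0.50 ± 0.07, adjusted p 6.55e-07), and the accessory subunit ATP5MK fell from 59.1 and 58.2 to 43.6 and 39.5 CPM (-0.50 ± 0.07). The catalytic alpha and beta subunits, ATP5F1A and ATP5F1B, fell less, with log2 changes of -0.27 ± 0.04 and -0.20 ± 0.04. ATP5PB, the b subunit of the same peripheral stalk as ATP5PD, was the only called rise of complex V: it stood at 185 and 186 CPM in the unheated controls, 164 and 169 in the heated controls and 216 and 211 in the heated knockdown (0.36 ± 0.05, adjusted p 4.05e-07). Its libraries did not overlap between any of the 3 groups. It has 8 pseudogene rows.

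**Figure D3:**
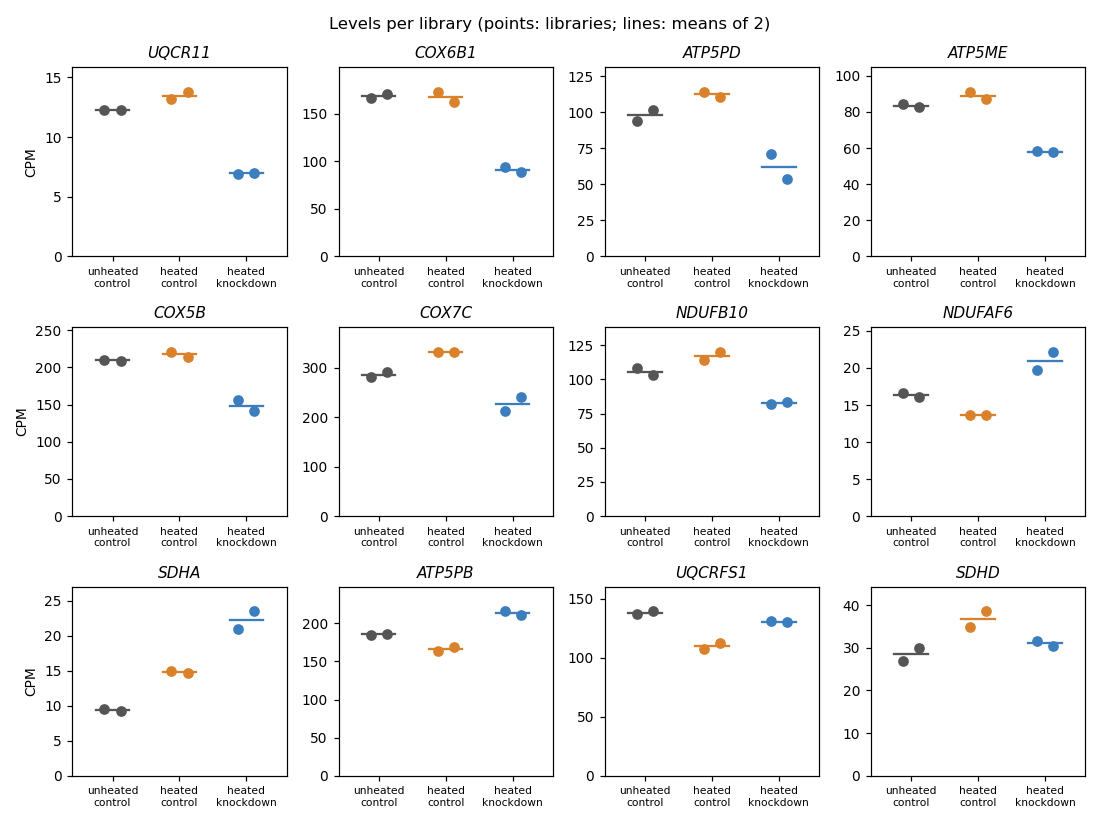
CPM of 12 members in each library (points) with the mean of the 2 libraries of a group (lines), each panel from 0 on its own scale. In UQCR11, COX6B1, ATP5PD, ATP5ME, COX5B, COX7C and NDUFB10 the knockdown points lie below both control groups, and in NDUFAF6, SDHA and ATP5PB they lie above.

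Complex III, which carries electrons from ubiquinol to cytochrome c, moved in both directions. UQCR11, a small accessory subunit (chr19:1597169-1605462), stood at 12.3 and 12.3 CPM in the unheated controls, 13.2 and 13.8 in the heated controls and 6.89 and 7.03 in the heated knockdown. This was the deepest fall of all tested members, to 51.7% of the heated controls (-0.95 ± 0.13, adjusted p 1.5e-06), although at a low level. The more abundant accessory subunits UQCRQ, from 317 and 282 to 209 and 218 CPM (-0.49 ± 0.05), and UQCRH, from 195 and 174 to 153 and 148 CPM (-0.30 ± 0.05), fell too. The near-identical UQCRHL was not called (-0.48 ± 0.25, adjusted p 0.173): its heated controls read 36.4 and 22.6 CPM, and without the second of them it was called at -0.80.

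CYC1, the cytochrome c1 haem subunit, also fell (-0.20 ± 0.05). The 3 that rose were the Rieske iron-sulfur subunit UQCRFS1, at 137 and 139 CPM in the unheated controls, 107 and 112 in the heated controls and 131 and 130.1 in the heated knockdown (0.25 ± 0.05, adjusted p 0.000176), and the large core proteins UQCRC1 (0.15 ± 0.05) and UQCRC2 (0.16 ± 0.05). UQCRFS1 was lower in the heated controls than in both other groups. Without the first heated control the changes of UQCRC1 (0.12, adjusted p 0.1) and UQCRC2 (0.14, adjusted p 0.0917) were not called.

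In complex I, NDUFS1, the largest core subunit, stood at 141 and 148 CPM in the unheated controls, 133 and 130.4 in the heated controls and 144 and 144 in the heated knockdown (0.13 ± 0.05, adjusted p 0.0287), a rise that was not called without either unheated control (adjusted p 0.0605 and 0.059) or either heated control (0.0711 and 0.186).

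The core subunits that fell were NDUFV1, which binds NADH, from 127 and 127 to 105 and 105 CPM (-0.28 ± 0.05), NDUFS3 (-0.19 ± 0.06) and NDUFV2 (-0.81 ± 0.30), which was measured at under 4 CPM in every library. DESeq2 did not call NDUFS3 (adjusted p 0.0625), and NDUFV2 was not called by DESeq2 (0.131), without the first heated control (-0.76, adjusted p 0.0928) or without the second knockdown library (-0.51, adjusted p 0.215). The supernumerary subunits that fell most were NDUFB10, at 108 and 103 CPM in the unheated controls, 114 and 120.2 in the heated controls and 81.7 and 83.5 in the heated knockdown (-0.50 ± 0.05, adjusted p 2.64e-08), and NDUFAB1, at 81 and 75.7 CPM in the unheated controls, 87.4 and 96.5 in the heated controls and 65.8 and 64.1 in the heated knockdown (-0.50 ± 0.06, adjusted p 1.98e-07). NDUFAB1 is the mitochondrial acyl carrier protein, which also serves lipoic acid and iron-sulfur cluster synthesis. For both, the knockdown libraries lay below all 4 controls.

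The assembly factors split. NDUFAF3, which acts early in building the quinone module, stood at 21.7 and 19.1 CPM in the unheated controls, 18.7 and 19.9 in the heated controls and 11 and 12.9 in the heated knockdown (-0.69 ± 0.12, adjusted p 2.18e-05). NDUFAF6 stood at 16.7 and 16.1 CPM in the unheated controls, 13.6 and 13.6 in the heated controls and 19.7 and 22.2 in the heated knockdown (0.62 ± 0.11, adjusted p 3.02e-05), but 7 other genes overlap its span, so its reads cannot be assigned with certainty. NDUFAF1 (0.51 ± 0.17) and NDUFAF2 (0.33 ± 0.08) rose from 5 and 6.67 to 9.22 and 7.45 CPM and from 45.1 and 36.4 to 52 and 50.6 CPM. NDUFAF1 lost its call without the first heated control (0.32, adjusted p 0.2) or the first knockdown library (0.34, adjusted p 0.156), and NDUFAF2 without the second heated control (0.17, adjusted p 0.0997).

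Complex II, succinate dehydrogenase, is also an enzyme of the citric acid cycle. SDHA, its flavoprotein (chr5:218320-268746), stood at 9.59 and 9.19 CPM in the unheated controls, 15 and 14.8 in the heated controls and 21 and 23.5 in the heated knockdown, so each group lay above the one before it with no overlap (0.58 ± 0.11, adjusted p 6.17e-05, in the knockdown). SDHB was not called, at 81.3 and 93.7 and 82.7 and 85.4 CPM in the heated groups (-0.06 ± 0.06). The membrane anchors fell, SDHC from 26.1 and 28.3 to 21.4 and 24.1 CPM (-0.26 ± 0.09, adjusted p 0.0186) and SDHD from 34.9 and 38.6 to 31.6 and 30.5 (-0.24 ± 0.08, adjusted p 0.014). Without the second heated control neither was called, at -0.21, adjusted p 0.143 and -0.18, adjusted p 0.153, and SDHC was not called without the first knockdown library either (-0.18, adjusted p 0.155).

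Nuclear genes of the respiratory chain are known to be driven by NRF1, by ETS factors such as GABPA, and by YY1, so their promoters were searched on both strands over 250 bases before and 50 after the start site, in RefSeq on GRCh38.p14. A promoter was found for 79 of the 98 members. The NRF1 motif GCGCATGCG was present in 11 of 79 (13.9%) and in 2.1% of the 27305 promoters of the same length. The YY1 motif AAGATGGCG was in 8 (10.1%) and in 1.85% of all, and the ETS motif CCGGAAGTG in 4 (5.06%) and in 2.5% of all. Paired heat shock units, GAANNTTC or TTCNNGAA, were in 8 (10.1%) and in 13.7% of all, and 3 units in a row in 0 members and 0.487% of all. Of the 27305 promoters, 15443 belonged to protein-coding genes. In these the shares were 2.78% for NRF1, 2.8% for YY1 and 3.59% for ETS. Paired heat shock units were in 11.4% of them and 3 in a row in 0.363%.

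Of the 72 tested members with a promoter 11 (15.3%) held the NRF1 motif. Among them were 5 of the 39 that fell in the knockdown (12.8%), a share near that of all 72, and 0 of the 9 that rose. The first 4 sequences show the NRF1 match in capitals, longer where matches on the 2 strands overlap, with up to 40 bases on each side, in ATP5ME and SDHD, which fell, and in NDUFB4 and ATP5F1C, which also fell, with log2 changes of -0.26 ± 0.06 and -0.19 ± 0.05. The last 3 show the 100 bases before the start site of COX6B1, UQCR11 and SDHA, 3 genes with large changes. Their windows hold no exact match to the motifs above, and variant forms of the motifs were not searched. All run 5′ to 3′ along the gene's strand.
ATP5ME, chr4:674306-674394, minus strand: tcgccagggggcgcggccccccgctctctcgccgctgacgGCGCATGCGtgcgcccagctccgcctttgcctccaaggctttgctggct
NDUFB4, chr3:120596137-120596226, plus strand: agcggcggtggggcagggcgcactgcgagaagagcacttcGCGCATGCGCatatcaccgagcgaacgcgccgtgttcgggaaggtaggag
ATP5F1C, chr10:7788115-7788176, plus strand: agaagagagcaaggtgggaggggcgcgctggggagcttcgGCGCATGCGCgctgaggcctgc
SDHD, chr11:112086723-112086812, plus strand: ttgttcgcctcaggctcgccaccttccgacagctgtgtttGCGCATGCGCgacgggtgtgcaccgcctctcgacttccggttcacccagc
COX6B1, chr19:35648223-35648322, plus strand: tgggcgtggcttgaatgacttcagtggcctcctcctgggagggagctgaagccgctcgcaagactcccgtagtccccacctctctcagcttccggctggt
UQCR11, chr19:1605463-1605562, minus strand: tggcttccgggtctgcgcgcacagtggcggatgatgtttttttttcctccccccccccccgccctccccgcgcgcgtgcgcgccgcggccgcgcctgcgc
SDHA, chr5:218220-218319, plus strand: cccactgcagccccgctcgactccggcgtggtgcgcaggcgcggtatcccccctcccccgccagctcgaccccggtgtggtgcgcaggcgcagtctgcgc

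Members with a shorter deposited length had on the whole the more negative changes. That length is the summed exon length of a gene in the annotation used and need not be that of a transcript. Its Spearman rho with the knockdown change was 0.34 over the 87 tested members and 0.34 over the 24 without a pseudogene row or overlap. Over 13556 protein-coding genes it was 0.0091. All these points come from the same 4 libraries and genes are not independent replicates, so the values are descriptive. Of the 20 members of at most 1500 bases 13 fell and 0 rose, beside 30.5% lower and 24.1% higher of 469 protein-coding genes of that length. Of the 20 members longer than 5000 bases 9 fell and 6 rose, or 45% and 30%, beside 31.3% lower and 32% higher of 7571 protein-coding genes of that length. For heat shock the rho over the members was 0.015.

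**Figure D4:**
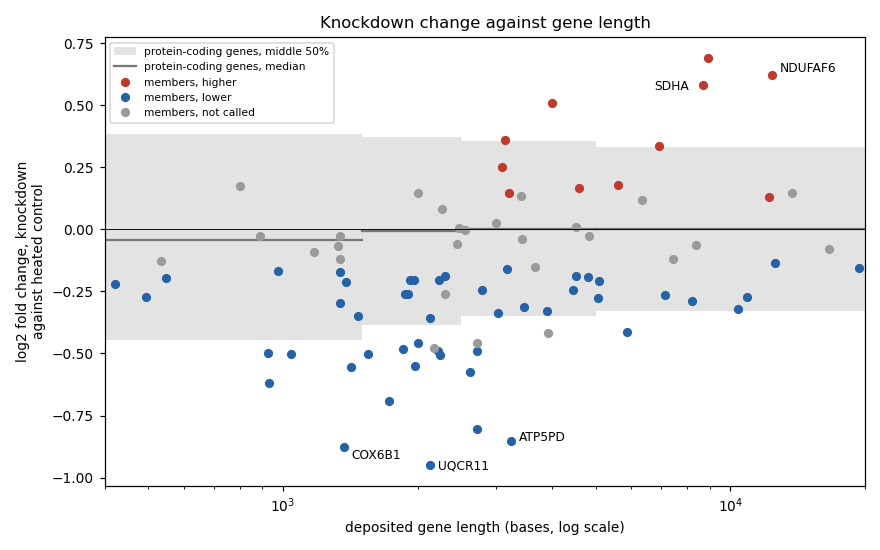
Knockdown log2 fold change of the tested members (points, by call) against the deposited gene length in bases (log axis). The line and band give the median and middle 50% of tested protein-coding genes in 4 length ranges. None of the 20 members of at most 1500 bases or the 21 from there to 2500 bases was called higher, and 13 and 15 of them were called lower.

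Heat shock in control cells called 28 of the 87 members higher and 8 lower, a share of 41.4%, near the 43.9% of all tested genes. It was below the 55.8% called of the 9024 protein-coding genes at or above the members' 10th percentile of abundance. Of those genes 25.1% were higher and 30.7% lower. Of all tested genes 20.6% were higher and 23.3% lower. The median change of the members was 0.11, and that of all tested genes was -0.027. Of the 24 members without a pseudogene row or overlap 6 were higher and 3 lower (25% and 12.5%), with a median of 0.089. Of the other 63 members 22 were higher and 5 lower (34.9% and 7.94%), with a median of 0.12. The split of the calls moved with the scaling: with library size alone 18 members were higher and 17 lower, beside 17.0% and 29.5% of all tested genes, and the medians were 0.038 over the members and -0.097 over all tested genes. The call count fell to 22 without the first unheated control (16 higher, 6 lower), 20 without the second (17 and 3) and 22 without the first heated control (18 and 4).

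Heat rises were spread over the complexes: 10 of 29 supernumerary subunits of complex I rose, 1 of 7 core subunits, 2 of 8 assembly factors, 2 of 4 genes of complex II, 3 of 10 of complex III, 4 of 12 of complex IV and 6 of 17 of complex V. SDHA changed by 0.66 ± 0.12 (adjusted p 7.46e-05) and SDHD by 0.37 ± 0.08 (adjusted p 0.000641), from 27 and 29.9 to 34.9 and 38.6 CPM, with no overlap between the groups. NDUFA9, which binds NADPH at the junction of the arms of complex I, stood at 9.21 and 11.1 CPM unheated and 15.5 and 13.9 heated (0.54 ± 0.13, adjusted p 0.00123). NDUFA12 rose from 37.4 and 34.2 to 49.99 and 42.4 CPM (0.37 ± 0.08), and by 0.24 without the first heated control. NDUFS4, a subunit whose loss is a known cause of Leigh syndrome, rose from 62.6 and 61.4 to 74.4 and 75.5 CPM (0.27 ± 0.06, adjusted p 0.000401), and the core subunit NDUFS3 from 65.7 and 63.8 to 75.4 and 77.3 (0.24 ± 0.06). These calls also stood with library size alone. COX7C rose from 281 and 292 to 331 and 332 CPM (0.21 ± 0.05, adjusted p 0.00143), and its call stood with each library left out.

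Other heat rises were lost when a single library was left out. UQCRQ (0.22 ± 0.05), UQCRB (0.22 ± 0.05), a subunit that helps bind ubiquinone, and the peripheral stalk subunit ATP5PO (0.24 ± 0.06) were not called without the first heated control (0.13, adjusted p 0.078, 0.15, adjusted p 0.0505 and 0.15, adjusted p 0.121). NDUFAF4 (0.42 ± 0.10) and NDUFB4 (0.28 ± 0.06) were not called without the first unheated control (0.32, adjusted p 0.0597 and 0.20, adjusted p 0.0556), and NDUFAF5 (0.43 ± 0.11) not without the second heated control (0.32, adjusted p 0.0714). The epsilon subunit ATP5F1E (0.25 ± 0.05) lost its call without the first heated control (0.13, adjusted p 0.0752). NDUFC2 (0.50 ± 0.17) lost it without the first unheated (0.39, adjusted p 0.173) or first heated control (0.27, adjusted p 0.334), and ATP5MG (0.38 ± 0.13) without the second unheated (0.25, adjusted p 0.243) or second heated control (0.31, adjusted p 0.152). The small rise of COX4I1 (0.14) was lost without either unheated or the second heated control (adjusted p 0.0585 to 0.184), and those of ATP5F1B (0.14) and COX7A2L (0.14) without either unheated or the first heated control (0.0774 to 0.159 and 0.108 to 0.282). COX7B (0.16) and UQCRH (0.20) lost theirs without the second unheated (0.34 and 0.0615) or the first heated control (0.402 and 0.156). With library size alone ATP5MG, COX4I1, ATP5F1B, COX7A2L and COX7B were not called either.

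Fewer members fell with heat. NDUFV3, a supernumerary subunit beside the NADH-binding site, stood at 29 and 32.4 CPM unheated and 22.7 and 22.4 heated (-0.45 ± 0.09, adjusted p 0.000211), and UQCRFS1 at 137 and 139 and 107 and 112 (-0.33 ± 0.05, adjusted p 6.91e-06). NDUFAF7, a methyltransferase of the mitochondrial matrix, fell from 52.8 and 53.5 to 44.1 and 42.9 CPM (-0.29 ± 0.07). In each of these 3 the unheated and heated libraries did not overlap. NDUFA11, a supernumerary subunit of the membrane arm, had a larger fall at a low level, from 4.98 and 6.23 to 4 and 2.94 CPM (-0.70 ± 0.21, adjusted p 0.0106), and was not called by DESeq2 (0.109), without the second unheated control (-0.53, adjusted p 0.132) or without the second heated control (-0.48, adjusted p 0.144). NDUFAF8 (-0.16), ATP5PB (-0.16) and NDUFS1 (-0.13) fell by less, and each was not called without some single library: NDUFAF8 without either unheated or the first heated control (adjusted p 0.0928 to 0.204), ATP5PB without the second unheated or first heated control (0.0579 and 0.0653), and NDUFS1 without the second unheated or either heated control (0.0603 to 0.236).

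The heated knockdown was also set directly against the unheated controls, a comparison that shares its libraries with the 2 above. Here 32 members were lower and 10 higher of 87 (48.3% called, beside 62.2% of all tested genes, 31.1% in each direction), with a median of -0.068. Of the 9024 protein-coding genes at or above the members' 10th percentile of abundance 73.6% were called, 36.1% higher and 37.5% lower. The members' 36.8% lower was near the share of these genes, and their 11.5% higher was below it. Of the 24 members without a pseudogene row or overlap 10 were lower and 2 higher. COX6B1 changed by -0.88 ± 0.05, UQCR11 by -0.82 ± 0.13, NDUFAF3 by -0.77 ± 0.11, ATP5MC1 by -0.69 ± 0.08 and ATP5F1D by -0.61 ± 0.06, all lower in the heated knockdown. SDHA was 1.24 ± 0.11 higher (adjusted p 9.18e-10) and NDUFAF2 0.39 ± 0.08 (adjusted p 0.000163). NDUFA9, NDUFA12, NDUFB4, NDUFS3, SDHD and UQCRFS1, described above, were not called here, with log2 changes of 0.22, 0.08, 0.02, 0.05, 0.13 and -0.08.

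The mitochondrially encoded subunits, the partners of these genes in complexes I, III, IV and V, did not move with them as a group. Of 13 tested 2 rose and 2 fell in the knockdown (15.4% each, beside 27.4% and 27.2% of all tested genes), with a median of -0.043. With heat 0 rose and 3 fell (23.1% lower, beside 20.6% higher and 23.3% lower of all tested genes). In the knockdown MT-ND5 changed by 0.42 ± 0.05, MT-CO3 by 0.25 ± 0.05, MT-ND6 by -0.71 ± 0.12 and MT-ND2 by -0.25 ± 0.07. In the knockdown 4 rose without its first library and 5 fell without its second, and with heat 1 rose without either knockdown library. Mitochondrially encoded genes took 5.095% to 6.122% of the counts of a library.

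Other lists of the pathway were counted in the same way in the knockdown, in which 27.4% of all tested genes were higher and 27.2% lower. Assembly factors outside the NDUFAF family had 12 higher and 11 lower of 46 (26.1% and 23.9%), near those shares. Among them COA1, an assembly factor of complexes I and IV, changed by -1.17 ± 0.07. ECSIT, an assembly factor of complex I, changed by 0.79 ± 0.08. Citric acid cycle genes had 6 higher and 4 lower of 16, and carriers with cytochrome c 2 and 2 of 8, CYCS among the higher at 0.31 ± 0.05. Glycolysis, the other main source of ATP, had 4 higher and 10 lower of 17 and a median of -0.27: LDHA, which turns pyruvate into lactate, stood at 1163 and 1168 CPM in the unheated controls, 997 and 995 in the heated controls and 629 and 652 in the heated knockdown (-0.64 ± 0.04, adjusted p 9.67e-12), PFKM changed by -0.93 ± 0.06, and HK2 rose by 0.50 ± 0.07. Mitochondrial ribosomal proteins had 15 higher and 29 lower of 77, and cytosolic ones 17 and 17 of 84. With 1 library left out, the citric acid cycle falls dropped to 2 (without either heated control) and the cytosolic ribosomal rises to 11 (without the first heated control).

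Regulators of these genes included 4 higher and 4 lower of 14 in the knockdown (28.6% each), near the 27.4% and 27.2% of all tested genes. TFAM, which packages and transcribes mitochondrial DNA, stood at 126 and 131 CPM in the unheated controls, 137 and 131 in the heated controls and 90.1 and 88.5 in the heated knockdown (-0.59 ± 0.05, adjusted p 9.58e-10). PPARGC1A, a coactivator of NRF1 and the estrogen-related receptors, was low, at 1.14 and 1.22 CPM in the unheated controls, 1.54 and 1.08 in the heated controls and 5.98 and 7.03 in the heated knockdown (2.32 ± 0.25, adjusted p 3.53e-08), while its relative PPARGC1B changed by -0.58 ± 0.12 and the mitochondrial RNA polymerase POLRMT rose by 0.71 ± 0.06. Of 20 chaperones and import genes 5 rose (3 without the second heated control) and 6 fell, TOMM20, a receptor of the outer membrane through which such subunits enter, falling from 94 and 96.2 to 41.3 and 34.9 CPM (-1.32 ± 0.07, adjusted p 6.03e-14).

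With heat, the same lists held a few large changes, where 20.6% of all tested genes were higher and 23.3% lower. The mitochondrial chaperonin HSPD1 stood at 528 and 533 CPM unheated and 2048 and 1992 heated (1.93 ± 0.05, adjusted p 2.08e-20), and its partner HSPE1 rose by 1.64 ± 0.09, far more than any member. Of the 20 chaperones and import genes 4 rose and 5 fell, and 3 fell without any single control library. Cytosolic ribosomal proteins had 43 higher and 2 lower of 84, a count that was 20 higher and 4 lower with library size alone, 28 higher without the first unheated control and 19 without the second. Among the regulators 3 rose and 4 fell of 14, GABPB1 by 0.68 ± 0.07 and GABPA by 0.35 ± 0.06 among the rises and PPRC1 by -0.76 ± 0.05 and POLRMT by -0.70 ± 0.06 among the falls, and with library size alone 7 fell.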

How the data were processed

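RNA-seq was analysed in the 6 libraries; 4 methylated RNA immunoprecipitation samples were not analysed here. Per the labels' protocols, RNA was extracted with TRIzol and the VAHTS Universal V8 kit gave libraries for the DNBSEQ-T7. The authors deposited raw read counts per gene, not normalized, with a gene length. Per the submitters' processing notes, the tools were HISAT2 2.2.1, featureCounts 2.0.2, FastQC 0.11.8, R 4.4.0, SAMtools 1.17, MACS2, DESeq2 1.36.0 and Trim Galore 0.6.7, with GRCh38, in no stated role. The annotation release, strand setting and treatment of reads with several positions are not given in these sources.

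Of 63187 rows, 62666 had a symbol through Ensembl identifiers. Positions and promoters are from RefSeq, GRCh38.p14. The members and all gene lists were chosen with earlier results of these data known.

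Here, counts entered 1 edgeR 4.0.16 fit over all 6 libraries in R 4.3.3 (quasi-likelihood F test, robust, TMM scaling, filterByExpr with a minimum count of 10, 3 residual degrees of freedom). It tested 17290 genes, with p adjusted by Benjamini-Hochberg over all of them and a threshold of 0.05. Changes are log2 with the SE. The common biological coefficient of variation was 3.69%. Totals were 13252370 to 15500743 counts. The 2 libraries of each group differed beyond sampling noise (chi-square per gene 1.55 to 3.54).

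The named members were up to 12 called rises and 12 called falls per comparison among those of at least 5 CPM on average, the highest per kilobase of each complex, tested isoform pairs and the SDH genes, and of the other lists up to 3 called genes in each direction. COX5A, COX6C, COX8A, CYC1, UQCRQ, NDUFV1, NDUFV2, ATP5F1A, ATP5F1C, NDUFB9, NDUFA7, NDUFA11, UQCRB, ATP5PO, the knockdown changes of NDUFB4 and NDUFS3, the untested isoforms and the promoters shown were chosen after their values were seen. One member is counted but not reported here by itself. The test was checked on simulated counts of the knockdown comparison, with 16828 genes tested. It recovered 19 of 50 genes changed 1.25-fold, 35 of 50 changed 1.5-fold and 43 of 50 changed 2-fold, and called 13 of 16634 unchanged. Far fewer genes were changed there than were called in the data, so these rates need not hold for the real comparison. The changed genes were drawn at random from all tested genes and not from the members. Alternatives were other scalings, no filter, DESeq2 1.42.0, limma voom (3.58.1), only the groups compared, no robust step, a replicate block and each library left out, whose lone partner was then taken to vary like the other groups.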

Additional observations from a re-analysis of the deposited data

How the results depend on the processing

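The counts of members called were recomputed under the alternatives. For heat shock, library size alone gave 18 higher and 17 lower in place of 28 and 8, and DESeq2 called 22 in place of 36, of which 3 were lower. Leaving out 1 library gave 20 to 44 called with heat, 16 to 34 higher and 3 to 10 lower. For the knockdown, DESeq2 called 7 higher in place of 11, and leaving out 1 library gave 7 to 12 higher. The other recomputed counts, including all of the knockdown falls (33 to 51) and all of the heated knockdown against unheated, moved by no more than 1.5 times. Same-numbered libraries did not deviate together (correlations of -0.00936, -0.0226 and 0.0142), so the numbers were not taken as pairs, and with a replicate block the counts were 28 higher and 8 lower with heat, 11 and 49 in the knockdown and 10 and 32 against unheated.

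Of 1320 recomputed changes of named members, over 88 pairs of a member and a comparison, 1201 kept direction and call, 82 lost the call, 24 gained it and 13 changed sign, none of these called in either form. The sign changed with heat for COX6A1 and ATP5MC3 with library size alone (-0.060 and -0.030), and with 1 library left out for COX6A1 (-0.024 to 0.035), ATP5MC2 (-0.11 to 0.31) and UQCRHL (-0.027 to 0.66). It also changed for COX6B1 (0.0080 with DESeq2's scaling, 0.0081 with its test, 0.022 with the 2 groups alone and -0.053 to 0.037 with 1 library left out), and in the knockdown for SDHB (-0.16 to 0.039 with 1 library left out) and COX5A (-0.14 to 0.0060 with 1 library left out). DESeq2's test did not call ATP5MG, ATP5PB, COX7A2L, COX7B, NDUFA11, NDUFAF8, NDUFC2 and NDUFS1 with heat (adjusted p 0.0672 to 0.223), nor COX8A, NDUFAF1, NDUFS1, NDUFS3, NDUFV2, SDHC, SDHD, UQCRC1 and UQCRC2 in the knockdown (0.0625 to 0.143). Without length correction the member with the highest level was the same in 1 of 5 complexes. The 2 libraries of a group, and the depths of 13252370 to 15500743 counts, limit small changes. In simulated counts the test recovered 35 of 50 genes changed 1.5-fold, drawn from tested genes of any level. That rate need not hold for the members, whose median was 69.02 CPM, or for the real comparison.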
